A study of Mus musculus with 17 samples.

Results

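The comparison described here sets mouse pancreatic islets kept in culture for 48 h against islets of the same isolations harvested at 0 h, without culture. Pancreatic islets are small clusters of endocrine cells, mostly insulin-producing beta cells, that are freed from the surrounding exocrine pancreas. Per the labels, islets of C57BL/6 mice were prepared in 6 independent batches, each pooled from 4 mice, and every batch was split 3 ways for harvest at 0, 24 or 48 h. The islets were cultured in F12K medium with 10% fetal bovine serum at 37 °C and 5% CO2, and no group received a drug, a genetic change or any other treatment. Total RNA was amplified and hybridised to Affymetrix mouse genome expression arrays. The comparison rests on the 6 arrays labelled 48 h (replicates 1 to 6) and the 5 labelled 0 h (replicates 1, 2, 3, 4 and 6), and batch 5 has no 0 h array among those used here. A time point in this design therefore combines isolation, culture and the passing of time, with no uncultured 48 h group. Of 45101 probe sets in the deposited table, 45037 remained without control probe sets, and 34945 of these carried 1 gene symbol. They stand for 18193 genes, each read from its probe set with the highest mean over all 17 arrays, and all 18193 entered the comparison.

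Islet endocrine cells lie in a dense capillary network, together with resident macrophages, pericytes and small numbers of fibroblasts, and a preparation usually carries some acinar and duct cells of the exocrine pancreas. Isolation cuts the vessels and strips the surrounding basement membrane, and islets in culture have no blood flow. Cells answer shortage of amino acids, unfolded protein in the endoplasmic reticulum and oxidants through a few well-studied transcription factors, among them ATF4, XBP1 and NRF2, each of which switches on a known set of genes.

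All levels below are log2 intensities after RMA, the authors' normalisation, so that a step of 1 is a 2-fold step. A difference is the mean at 48 h minus the mean at 0 h with its standard error (SE), from limma's moderated linear model over all 17 arrays. P-values are Benjamini-Hochberg adjusted over the 45037 probe sets, and a gene passed, and is said to have risen or fallen, where its adjusted p was under 0.05. Probe sets under the table's median of 3.52 give little signal. Where a fold is given as at least a value, such signals were raised to the median, so that it is a lower bound. Other differences that include such signals are uncertain in size. They occur, on at least 1 array, for Slc7a3, Hk2, Adam8, Adamts4, Lama3, Iigp1, Mgst1, Notch3, Tagln, Fgf1, Cav2, Thy1, Col1a1, Acp5 and Stbd1 below. For Col1a1 both means, 3.09 at 0 h and 3.47 at 48 h, were under the median. With all values under the median set to it, Col1a1, Iigp1, Mgst1 and Thy1 lost their calls (adjusted p of the last 3 = 0.163, 0.119 and 0.653). Pooled batches are the replicates, and p-values measure the spread between them.

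In order to see how far the transcriptome had moved, all genes were tested together. At 48 h 2133 genes passed, 11.7% of those tested, with 1174 higher (6.45%) and 959 lower (5.27%) than at 0 h. The balance of the directions turned with the scaling, as 1430 were higher and 704 lower with each array centred on its median, and 980 higher and 1159 lower with the arrays quantile normalised again. Without 0 h replicate 4 and 48 h replicate 5 together 1420 genes passed, 804 higher and 616 lower. Most differences were moderate. Among the passing genes 138 rose and 135 fell by 2-fold or more, 22 and 33 by 4-fold or more, and 5 and 9 by 8-fold or more. By the 4-fold rule of the submitters' design text, on ratios of mean linear intensities, 31 probe sets with 1 symbol were over 4-fold and 81 under 0.25-fold, the latter being 58 without 0 h replicate 3 and 48 on means of log2 values. The arrays of both times did not overlap at all in 941 genes on the higher side (5.17%) and 727 on the lower side (4.0%). The share of genes passing climbed with the level of the gene, from 1.6% in the lowest of 4 equal classes by mean level through 8.73% and 15.1% to 21.4% in the highest. Among genes above the table's median level 9.35% rose and 6.96% fell. The median difference over all genes was -0.02, beside which the list medians below are read. Against 24 h 78 genes were higher (0.429%) and 60 lower (0.33%) at 48 h, and 200 of all probe sets passed (0.444%).

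**Figure D1:**
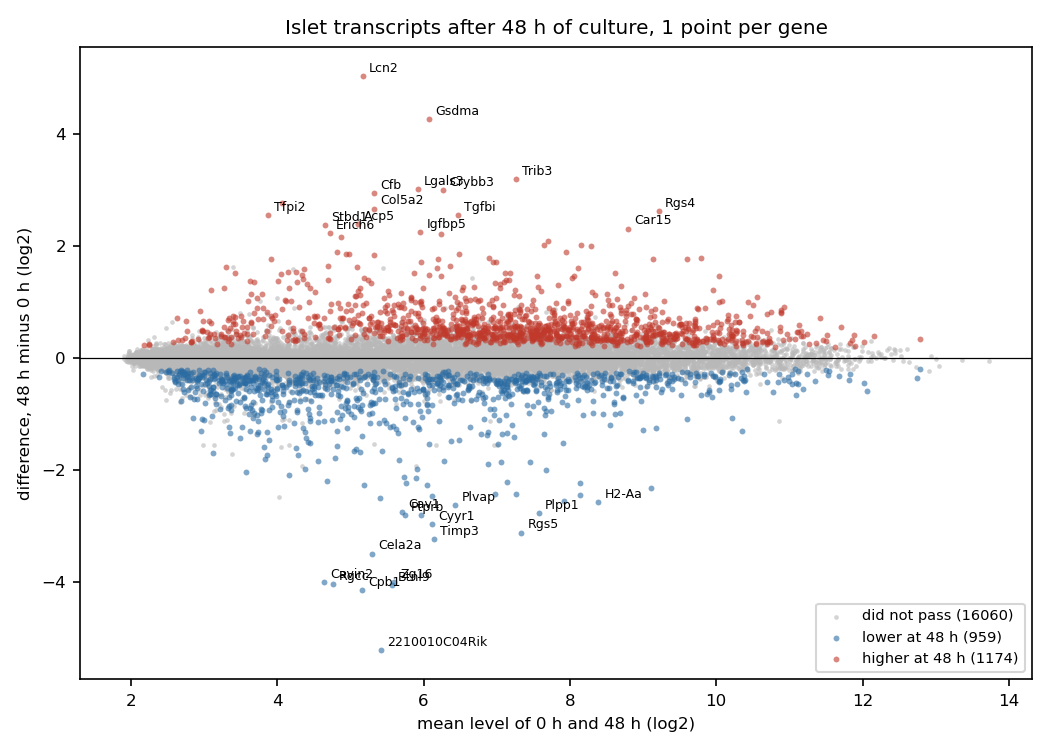
Difference between 48 and 0 h (log2, vertical axis) against the mean level of both times (log2 intensity, horizontal axis) for 18193 genes, 1 point per gene. Coloured points are the 1174 genes that rose and the 959 that fell at an adjusted p under 0.05 (limma), which spread to both sides at all but the lowest levels.

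The arrays were alike as a whole, with pairwise correlations of 0.980 to 0.994 over probe sets. Array medians were 3.54 on average at 0 h and 3.50 at 48 h (exact permutation p = 0.0173, two-sided, 0.0519 after adjustment over 3 tests). The 3'-to-5' signal differences of the Gapdh and actin control probe sets, a sign of RNA integrity, averaged 3.91 and 2.14 at 0 h and 3.67 and 2.02 at 48 h (exact permutation p = 0.0866 and 0.126). A few arrays stood apart in marker genes of other cells. The mean of 14 intestinal genes was 6.34 on 0 h replicate 3 and 3.67 to 3.74 on the other 0 h arrays. The mean of 26 acinar genes was 6.87 on 0 h replicate 4, the highest of that time, and on 48 h replicate 5 it was 4.75, with the rest of that time between 3.64 and 3.87. Their part in the results below was not tested, but list counts were repeated without 0 h replicate 3 and, separately, without 0 h replicate 4 and 48 h replicate 5 together.

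A uniform change was seen in the genes of the ATF4 branch of the integrated stress response, whose products make and take up amino acids, limit translation and break down glutathione. Of 25 measured genes 21 rose and none fell, with a median difference of 0.95. Even the list's mean did not overlap, with 7.03 to 7.31 on the 0 h arrays and 8.17 to 8.30 on the 48 h arrays, and it was higher at 48 h in each of the 5 batches with both times, by 0.98 to 1.19. The promoters of the list were searched for the amino acid response element, to which ATF4 with its C/EBP partners is known to bind. It was written as TGATGNAA on either strand, in the 300 bases from 250 before to 50 after the annotated start. It occurred in 7 of 23 promoters (30.4%), against 3.97% of all 32851 promoters. Among the 19 promoters of genes that rose, 6 held it. The 2 promoters with the largest rises among those 7 are printed below up to 30 bases after the start (RefSeq, GRCm38.p6), in lower case with the match in capitals. The match reads on the opposite strand in both, starting at position 14 from the start in Trib3 and at position -193 in Chac1. Trib3 lies at chr2:152344031-152344310 on the minus strand and Chac1 at chr2:119350992-119351271 on the plus strand.
Trib3: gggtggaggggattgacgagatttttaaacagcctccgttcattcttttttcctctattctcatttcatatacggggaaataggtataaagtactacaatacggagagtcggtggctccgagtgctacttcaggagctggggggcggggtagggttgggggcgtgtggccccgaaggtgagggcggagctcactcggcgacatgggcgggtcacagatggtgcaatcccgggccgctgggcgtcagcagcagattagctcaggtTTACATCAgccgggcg
Chac1: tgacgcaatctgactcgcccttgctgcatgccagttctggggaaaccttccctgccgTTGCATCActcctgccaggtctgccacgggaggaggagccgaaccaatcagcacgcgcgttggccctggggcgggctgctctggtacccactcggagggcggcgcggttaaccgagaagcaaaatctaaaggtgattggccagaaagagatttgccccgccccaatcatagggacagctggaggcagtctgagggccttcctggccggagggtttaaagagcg
A match describes the letters in the window and is not evidence of binding in these islets. Here and below, lists were gathered by known pathway, so a list's motif share does not bear on the change at 48 h.

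Trib3, a pseudokinase that ATF4 and CHOP switch on, measured 5.68, 5.99, 4.78, 5.46 and 6.42 on 0 h replicates 1, 2, 3, 4 and 6, and between 8.74 and 9.03 (median 8.84) on the 6 arrays at 48 h. The groups were 2.32 apart at their nearest arrays, and the 48 h arrays lay within 0.29 of each other. The rise was 9.14-fold (3.19 ± 0.21, adjusted p = 1.14e-08). Serine synthesis moved with it. Psat1, its aminotransferase, measured 6.37, 6.87, 6.23, 6.73 and 7.0 at 0 h and between 8.29 and 8.97 (median 8.69) at 48 h, again without overlap, a 4.03-fold rise (2.01 ± 0.15, adjusted p = 6.14e-08). The other enzymes of that route, Phgdh and Psph, rose by 1.02 and 1.71, and the mitochondrial one-carbon enzymes Mthfd2 and Shmt2 by 1.47 and 1.25. Chac1, which breaks down glutathione, measured 6.79, 7.29, 7.03, 7.12 and 8.21 at 0 h and between 9.10 and 9.41 (median 9.32) at 48 h, and rose 4.01-fold (2.00 ± 0.19, adjusted p = 1.18e-06). For Trib3, Psat1 and Chac1 the highest 0 h value was that of replicate 6. Nupr1, a stress-induced nuclear protein, rose by 1.76, and Eif4ebp1, which restrains cap-dependent translation, by 1.6. The factors themselves rose less: Ddit3, which encodes CHOP, by 0.94, Atf3 by 0.48 and Atf4 by 0.43. Ppp1r15a, the phosphatase subunit that ends the response, differed by 0.01 and did not pass, and neither did Ddit4, Fgf21 or Stc2. Among the smaller rises, the call was lost in fits without 1 array for Atf3 (10 of 11, adjusted p up to 0.127 on omission of 0 h replicate 2 and 0.0503 with batch as a block), Atf4 (6 of 11, adjusted p up to 0.102 on omission of 0 h replicate 4) and Slc3a2 (8 of 11, adjusted p up to 0.09 on omission of 0 h replicate 2).

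Aminoacyl-tRNA synthetases, which load amino acids on their tRNAs and many of which are ATF4 targets, followed. Of 19 cytosolic enzymes measured 12 rose and none fell, and the median difference was 0.54. The list's mean was 8.86 to 8.92 at 0 h and 9.29 to 9.57 at 48 h. Aars, the alanyl enzyme, measured 10.10, 9.86, 9.93, 10.01 and 10.23 at 0 h and between 10.87 and 11.07 (median 10.99) at 48 h. All 6 cultured arrays stood above all 5 uncultured ones, and the rise was 1.93-fold (0.95 ± 0.08, adjusted p = 6.56e-07). The others that passed ranged from Nars at 0.45 to Eprs at 0.99, the bifunctional glutamyl-prolyl enzyme. Among 19 plasma membrane amino acid transporters 7 rose and 1 fell, with a median of 0.09. Slc7a3, a cationic amino acid carrier, measured 3.74, 3.31, 3.42, 3.39 and 3.99 at 0 h and between 4.72 and 5.72 (median 5.14) at 48 h, at least 2.83-fold higher (adjusted p = 0.000201). The neutral amino acid carrier Slc1a4 rose by 0.87, and Slc7a5 and Slc3a2, the light and heavy chains of the large neutral amino acid exchanger, by 0.82 and 0.37. Slc7a8, the other light chain of that exchanger, fell by 0.36.

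**Figure D2:**
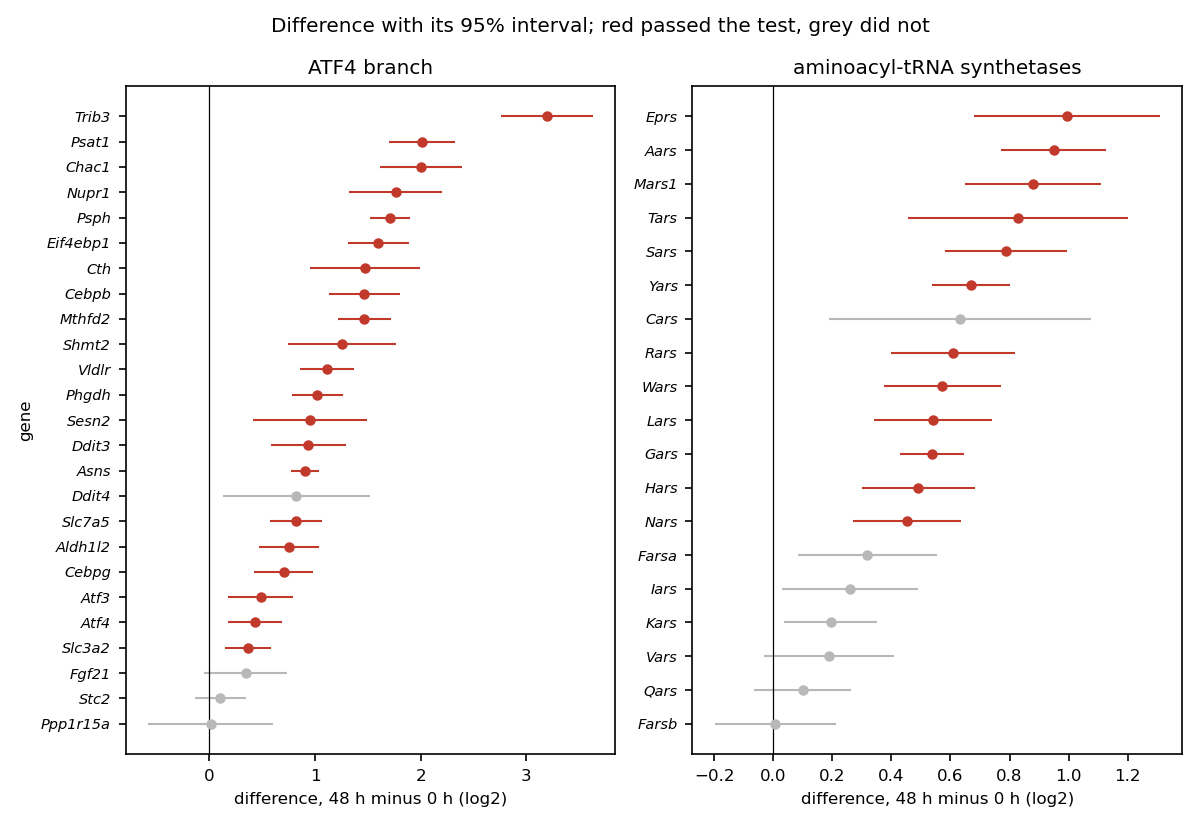
Difference between 48 and 0 h (log2, with 95% confidence intervals from limma) for the measured genes of the ATF4 branch and the cytosolic aminoacyl-tRNA synthetases, with passing genes marked. All 25 ATF4 genes and all 19 synthetases lie at or above 0 on the deposited scale, and 21 and 12 of them passed.

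Some genes for making and removing protein rose. Of 23 ribosome biogenesis genes 9 rose and none fell, with a median of 0.27, led by Nhp2, a subunit of the RNA-modifying box H/ACA particles (0.90), and Nop58 and Fbl, subunits of the box C/D particles (0.65 and 0.49). That count was 5 without 0 h replicate 3, without 0 h replicate 4 and 48 h replicate 5 together, and with quantile normalisation, and Nop58 lost its call without 0 h replicate 4 (adjusted p = 0.0612). Among ribosomal proteins 4 of 49 cytosolic (8.16%) and 7 of 75 mitochondrial ones (9.33%) rose, and none of either fell. These shares are near the 9.35% of genes above the table's median level that rose. The cytosolic median was -0.03, with 31 of the 49 differences below 0, and was 0.01 on median-centred arrays. The cytosolic count was 1 without 0 h replicate 4, alone or with 48 h replicate 5, and 2 without 0 h replicate 2, 0 h replicate 3, 48 h replicate 5 or 48 h replicate 6, with quantile normalisation, and with batch as a block. Of 34 subunits and partners of the constitutive proteasome 20 rose and none fell, the rises being 0.23 (Psma2) to 0.70 (Psmb7) and the median over the list 0.35. Psmc5, an ATPase of the regulatory cap, measured 9.16, 9.15, 8.97, 8.78 and 8.91 at 0 h and between 9.43 and 9.97 (median 9.57) at 48 h. Its groups did not overlap, and the rise was 1.58-fold (0.66 ± 0.13, adjusted p = 0.00247). Psma2 lost its call in 8 of 11 fits with 1 array omitted (adjusted p up to 0.118, on omission of 0 h replicate 4). Psmb7 lost it in 6 of 11 (adjusted p up to 0.0859, on omission of 0 h replicate 3) and with batch as a block (0.0701), and 13 subunits rose without 0 h replicate 4 and 48 h replicate 5 together.

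Class I antigen processing, in which the immunoproteasome cuts peptides that are loaded on surface class I molecules, rose in 10 of 13 genes, with none lower and a median of 0.62. The list's mean was 7.51 to 7.69 at 0 h and 8.10 to 8.39 at 48 h. Psmb10, a catalytic subunit specific to the immunoproteasome, measured 7.04, 7.38, 7.77, 7.06 and 7.36 at 0 h and between 8.65 and 8.83 (median 8.79) at 48 h. The lowest cultured array stood 0.88 above the highest uncultured one, 0 h replicate 3, and the rise was 2.75-fold (1.46 ± 0.13, adjusted p = 7.21e-07). The other 2 such subunits, Psmb8 and Psmb9, rose by 1.01 and 0.69, the trimming peptidase Erap1 by 0.92, and the class I heavy chains H2-D1 and H2-K1 by 0.48 and 0.38. Tap2, a chain of the peptide pump, rose by 0.37, whereas its partner Tap1 differed by 0.05 and did not pass, nor did the class I regulator Nlrc5. The call of Tap2 was lost in 9 of 11 fits with 1 array omitted (adjusted p up to 0.141, on omission of 0 h replicate 4) and with batch as a block (0.104). The light chain gene B2m differed by 0.69 and passed, but likewise lost the call in 9 of 11 such fits (adjusted p up to 0.104, on omission of 0 h replicate 2).

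Of 35 interferon-stimulated genes 3 rose (8.57%) and 2 fell (5.71%), with a median of 0.11, and 1 fell with batch as a block. These shares are near the 9.35% and 6.96% of genes above the table's median level that rose and fell. Irf9, a subunit of the interferon-activated factor, rose by 0.84 and Cmpk2, a mitochondrial nucleotide kinase, fell by 0.74. Interferon-inducible GTPases went both ways: Gbp6 rose by 1.84, and Iigp1, Ifi47 and Igtp fell by 1.32, 1.12 and 0.40, the last losing its call in 9 of 11 fits with 1 array omitted (adjusted p up to 0.112, on omission of 0 h replicate 6). The interferon-stimulated response element, a pair of GAAA with 2 bases between them on either strand, was in 6 of the 8 promoters (75.0%) found for 7 of the 9 GTPase genes, in 11 of 29 promoters of the interferon-stimulated list (37.9%) and in 3.44% of all promoters. Acute phase and complement genes rose in 7 of 24 and fell in 2. Serping1, the inhibitor of the first complement component, measured 7.25, 6.72, 7.74, 7.44 and 6.55 at 0 h and between 8.45 and 9.94 (median 9.18) at 48 h, a 4.04-fold rise (adjusted p = 4.28e-05). The acute phase signal transducer Stat3 rose by 1.03, its feedback inhibitor Socs3 by 1.51, and the factor Cebpd by 1.39, and C1s1, a protease of the first complement component, fell by 1.33. The call of Cebpd was lost in 9 of 11 fits with 1 array omitted (adjusted p up to 0.115, on omission of 0 h replicate 3). Among chemokines and cytokines 2 of 38 were higher at 48 h (5.26%, against 6.45% of all genes), Ccl5 by 1.0 and Cxcl16 by 0.88. Of 21 NF-kappaB targets and regulators 3 passed, Bcl3 and Sod2 higher (9.52%) and Tnfaip2 lower (4.76%), also near the shares above. Sod2 turned to -0.34 with its probe set of largest variance. Tnfaip2 lost its call without 0 h replicate 4 and 48 h replicate 5 together (adjusted p = 0.0561). The mean of that NF-kappaB list was 5.57 on 0 h replicate 6 and 5.14 to 5.18 on the other 0 h arrays.

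NRF2, the factor that answers oxidants and electrophiles, and the metal-sensing factor MTF1 control the next group, in which 20 of 29 genes rose and none fell, with a median of 0.66. The list's mean was 7.23 to 7.40 at 0 h and 7.92 to 8.02 at 48 h, and was higher at 48 h in all 5 complete batches. The core of the antioxidant response element, TGACNNNGC on either strand, occurred in 10 of 31 promoters of the list (32.3%) and in 12.4% of all promoters, and the core of the metal response element, TGCNCNC, in 19 of 31 (61.3%) and in 51.0%. The 2 promoters with the antioxidant core and the largest rises are printed with that core in capitals, Mt2 at chr8:94172368-94172647 on the plus strand, with the match at position -79, and Me1 at chr9:86695885-86696164 on the minus strand, with the match at position -6.
Mt2: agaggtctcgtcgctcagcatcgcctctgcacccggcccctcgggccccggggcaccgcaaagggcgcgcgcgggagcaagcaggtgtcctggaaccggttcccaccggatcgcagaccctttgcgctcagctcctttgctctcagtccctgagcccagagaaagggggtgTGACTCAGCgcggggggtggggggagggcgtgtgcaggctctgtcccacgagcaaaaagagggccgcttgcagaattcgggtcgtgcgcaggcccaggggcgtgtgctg
Me1: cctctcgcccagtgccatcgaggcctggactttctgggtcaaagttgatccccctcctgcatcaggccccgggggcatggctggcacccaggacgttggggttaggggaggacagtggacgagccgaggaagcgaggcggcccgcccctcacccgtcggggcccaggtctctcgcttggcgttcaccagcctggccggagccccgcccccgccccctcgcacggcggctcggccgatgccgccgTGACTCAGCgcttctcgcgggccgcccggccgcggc
Both cores hold the same 9 bases, TGACTCAGC.

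Gstp1, a glutathione transferase, measured 8.87, 8.59, 9.23, 8.88 and 8.90 at 0 h and between 10.55 and 10.94 (median 10.65) at 48 h. The nearest arrays of both times were 1.32 apart, and the rise was 3.45-fold (1.79 ± 0.11, adjusted p = 3.43e-09). Mt2, a metallothionein that binds zinc and copper, measured 8.54, 8.48, 8.51, 8.74 and 9.32 at 0 h, with replicate 6 the highest, and between 10.25 and 10.70 (median 10.50) at 48 h, 3.41-fold higher (1.77 ± 0.21, adjusted p = 2.11e-05). Me1, which makes NADPH from malate, rose 2.23-fold, from 5.79, 5.78, 5.62, 5.86 and 5.82 at 0 h to between 6.66 and 7.28 (median 6.82) at 48 h (adjusted p = 7.79e-05). Gpx2, a glutathione peroxidase, rose by 1.65 and Gstm1, another transferase, by 1.29. Of the 29 genes, 5 were lower at 48 h than at 24 h. Hmox1, which breaks down heme, measured 3.71, 4.02, 3.77, 3.67 and 3.96 at 0 h and between 4.79 and 5.42 (median 5.08) at 48 h, so that it rose by 1.25 over 0 h, while against 24 h it differed by -1.18 (adjusted p = 0.0107).

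Genes of the endoplasmic reticulum did not move as one. Of 31 chaperones and folding or disposal factors 4 rose and 4 fell, and counts dropped to 2 and 2 without 0 h replicate 4 and 48 h replicate 5, with 2 falls also without 0 h replicate 1 and on median-centred arrays. The ER stress element, CCAAT and CCACG with 9 bases between them, on either strand, was in 10 of 27 of their promoters (37.0%) and in 0.119% of all promoters. Both promoters shown hold it on the opposite strand, and both genes fell. Derl3 is at chr10:75893148-75893427 on the plus strand, with the match (in capitals, as it reads on the printed strand) at position -156, and Calr at chr8:84846902-84847181 on the minus strand, with the match at -162.
Derl3: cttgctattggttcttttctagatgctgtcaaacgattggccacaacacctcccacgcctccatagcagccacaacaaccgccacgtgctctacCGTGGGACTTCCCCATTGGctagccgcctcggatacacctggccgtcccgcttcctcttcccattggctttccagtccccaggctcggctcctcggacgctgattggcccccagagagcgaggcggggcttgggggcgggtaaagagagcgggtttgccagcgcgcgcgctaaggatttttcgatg
Calr: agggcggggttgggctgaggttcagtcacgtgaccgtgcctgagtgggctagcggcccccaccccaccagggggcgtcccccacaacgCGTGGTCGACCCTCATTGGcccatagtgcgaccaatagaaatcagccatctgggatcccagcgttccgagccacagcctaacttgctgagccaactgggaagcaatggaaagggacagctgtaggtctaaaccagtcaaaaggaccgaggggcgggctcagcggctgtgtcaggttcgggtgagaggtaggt
Derl3, a channel factor for disposal of misfolded protein, measured 6.91, 6.78, 6.30, 6.82 and 6.08 at 0 h and between 4.30 and 5.23 (median 4.77) at 48 h. The groups were well apart, and the fall was 3.54-fold (-1.83 ± 0.18, adjusted p = 2.55e-06). Calr, the calcium-binding chaperone calreticulin, measured 11.04, 11.01, 11.23, 11.16 and 10.94 at 0 h and between 10.11 and 10.72 (median 10.50) at 48 h, a fall of 1.52-fold (adjusted p = 0.0024). Xbp1, the factor of the IRE1 branch, fell by 0.30, while Ern1, which encodes IRE1, rose by 0.28 and the disposal genes Edem1 and Sel1l by 0.56 and 0.42. The call of Xbp1 was lost in 9 of 11 fits with 1 array omitted (adjusted p up to 0.108, on omission of 0 h replicate 6) and with batch as a block (0.0741). In the heat shock list 3 of 19 rose and 1 fell, Hspb1, a small heat shock protein, by 0.78.

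Growth arrest and death genes were tested as well. Cdkn1a, the cyclin-dependent kinase inhibitor p21, measured 7.03, 7.57, 6.99, 6.81 and 7.57 at 0 h and between 8.30 and 8.87 (median 8.45) at 48 h. No arrays overlapped, and the rise was 2.46-fold (1.30 ± 0.14, adjusted p = 1.05e-05). It was 1 of 3 among 20 p53 targets that rose, with the nuclease Aen (0.80) and Trp53inp1 (0.29), the latter resting on 1 probe set while another of its probe sets differed by -0.19, and losing its call in 2 of 11 fits with 1 array omitted (adjusted p up to 0.0520, on omission of 0 h replicate 4). Among 25 genes of the BCL2 family and caspases none rose and 1 fell, Casp12, from a mean of 3.28 to 2.82, both under the table's median, and 1 gene rose with batch as a block. Among 21 death receptor genes 4 rose and 1 fell.

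Energy metabolism shifted in part. In glycolysis and lactate export 6 of 20 genes rose, none fell, and the median was 0.34. They were the platelet-type and liver-type phosphofructokinases Pfkp and Pfkl (1.01 and 0.85), hexokinase 2 (1.01), Pgk1 (0.82), Tpi1 (0.74) and Aldoa (0.72), and the count was 3 without 0 h replicate 4 and 48 h replicate 5. Calls lost in fits without 1 array were those of Pfkl (3 of 11, adjusted p up to 0.0632 on omission of 0 h replicate 6) and Tpi1 (9 of 11, adjusted p up to 0.103 on omission of 48 h replicate 6). In the citric acid cycle 2 of 21 rose (9.52%), near the 9.35% of genes above the table's median level. Fumarase, Fh1, rose from 10.71, 10.47, 10.54, 10.37 and 10.31 at 0 h to between 11.24 and 11.32 (median 11.30) at 48 h (1.76-fold, adjusted p = 2.32e-05). Dlat also rose, but turned to -0.50 with its probe set of largest variance. Of 66 respiratory chain and ATP synthase genes 3 rose (4.55%) and 2 fell (3.03%), below the 9.35% and 6.96% of genes above that level. Ndufa9 lost its call with batch as a block (adjusted p = 0.0587), and Ndufs4 turned to -0.43 with its probe set of largest variance. Of 16 fatty acid oxidation and storage genes 5 rose and 1 fell. Cd36, a fatty acid uptake receptor, rose by 1.20, Plin2, which coats lipid droplets, by 0.64 and Acadvl, a very-long-chain dehydrogenase, by 0.61. Fatty acid synthesis had 2 higher and 4 lower of 13. Srebf1, the main factor of that pathway, measured 9.09, 9.07, 9.07, 9.05 and 9.15 at 0 h and between 8.09 and 8.58 (median 8.40) at 48 h and fell 1.63-fold (adjusted p = 0.000473), and Elovl6 and Fasn fell by 0.54 and 0.41, with only 1 fall counted without 0 h replicate 3, and 2 without 0 h replicate 4 or 0 h replicate 6. Single calls were lost for Elovl6 (4 of 11, adjusted p up to 0.0615 on omission of 0 h replicate 3) and Fasn (2 of 11, adjusted p up to 0.0633 on omission of 0 h replicate 4 and 0.0594 with batch as a block). Of 20 cholesterol genes 2 rose and 3 fell. Pmvk, an enzyme of the mevalonate pathway, rose 2.29-fold, from 7.22, 7.13, 6.75, 6.75 and 7.20 at 0 h to between 8.0 and 8.41 (median 8.19) at 48 h (adjusted p = 1e-06). Of 26 hypoxia genes 2 rose (7.69%) and 1 fell (3.85%), and with batch as a block 5 rose.

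Lysosomal genes rose in 11 of 50, with none lower and a median of 0.08. Ctsc, cathepsin C, measured 6.33, 5.97, 6.79, 5.68 and 7.13 at 0 h and between 7.43 and 8.01 (median 7.68) at 48 h, a 2.49-fold rise (1.32 ± 0.22, adjusted p = 0.000588) that did not overlap despite a wide spread at 0 h. The cathepsins Ctsl and Ctsb rose by 0.79 and 0.77, and the asparaginyl endopeptidase Lgmn by 0.89. The count was 7 without 0 h replicate 2, without 0 h replicate 3, without 0 h replicate 4 and 48 h replicate 5 together, and with quantile normalisation. In autophagy 4 of 20 rose (20%) and none fell, against 9.35% higher among genes above the table's median level. The count was 2 with the mean of a gene's probe sets. Atg3 lost its call with batch as a block (adjusted p = 0.0646). Wipi1 turned to -0.050 without probe sets that can cross-hybridise, and Atg4b to -0.21 with its probe set of largest variance.

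Among 9 islet hormone genes 3 fell and none rose, with a median of -0.35. The acinar, endothelial and class II list means were lower in every 48 h array than in every 0 h array, with values given further on, and their part in the levels of islet genes was not tested. Ins2, an insulin gene, measured 13.74, 13.74, 13.81, 13.75 and 13.74 at 0 h and between 13.57 and 13.75 (median 13.70) at 48 h. These ranges overlap, and the difference was -0.07 ± 0.05, with a 95% interval of -0.17 to 0.04, at levels near the top of the scale. Iapp, the amyloid polypeptide of beta cells, and Gcg, glucagon, differed by -0.02 and -0.16 and did not pass. Sst, somatostatin of delta cells, measured 11.45, 10.30, 11.27, 11.05 and 10.93 at 0 h and between 8.98 and 10.28 (median 9.71) at 48 h. The groups only just failed to overlap, since 0 h replicate 2 lay at 10.30 and the highest 48 h array at 10.28, and the fall was 2.47-fold (-1.31 ± 0.25, adjusted p = 0.00249). Npy, a neuropeptide, measured 5.74, 5.28, 6.48, 5.92 and 5.80 at 0 h and between 4.36 and 4.92 (median 4.69) at 48 h, with no overlap, and fell 2.23-fold (adjusted p = 0.000119). Ppy, pancreatic polypeptide, differed by -1.14 and did not pass (adjusted p = 0.0552), but fell by 0.99 with batch as a block (adjusted p = 0.00944). Ucn3, a peptide of mature beta cells, differed by -0.35 and passed, but not with batch as a block (adjusted p = 0.0682) and not in 8 of 11 fits with 1 array omitted (adjusted p up to 0.126, on omission of 0 h replicate 3).

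Genes for sensing glucose were on the lower side. Of 21 transporters, enzymes and channels 5 fell and 1 rose, with a median of -0.15, and 8 fell when only the 0 and 48 h arrays entered the fit. Slc2a2, the glucose transporter GLUT2, measured 12.28, 12.29, 12.12, 12.27 and 12.25 at 0 h and between 11.66 and 11.99 (median 11.77) at 48 h. The groups did not overlap, and the fall was 1.36-fold (-0.45 ± 0.08, adjusted p = 0.000867). Trpm5, a calcium-activated cation channel, measured 9.57, 9.16, 8.75, 9.02 and 9.24 at 0 h and between 7.44 and 8.20 (median 8.04) at 48 h, a 2.3-fold fall (-1.20 ± 0.15, adjusted p = 4.31e-05). Atp2a3, a calcium pump of the endoplasmic reticulum, fell by 0.71, the potassium channel Kcnk16 by 0.61 and G6pc2, the islet glucose-6-phosphatase, by 0.31. The subunits of the ATP-sensitive potassium channel, Kcnj11 and Abcc8, differed by -0.16 and -0.35 and did not pass. Trpm2, another cation channel, rose by 0.65, although a second probe set differed by -0.27 and the call was lost in 5 of 11 fits with 1 array omitted (adjusted p up to 0.0636, on omission of 48 h replicate 4).

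Of 25 islet transcription factors 8% rose and 8% fell, near the 9.35% and 6.96% of genes above the table's median level. Mnx1 and Pax6 rose (0.51 and 0.26) and Nkx6-1 and Foxa2 fell (-0.40 and -0.40). Only Nkx6-1 passed with batch as a block, with adjusted p of 0.0514, 0.0669 and 0.0648 for Mnx1, Pax6 and Foxa2. With 1 array omitted, Foxa2 lost its call in 8 of 11 fits (adjusted p up to 0.0844, on omission of 0 h replicate 6), Pax6 in 6 of 11 (up to 0.0826, 0 h replicate 2) and Nkx6-1 in 2 of 11 (up to 0.0630, 0 h replicate 1). Pdx1 and Neurod1 differed by -0.14 and -0.16 and did not pass. In the granule and prohormone processing list 2 of 16 rose and 2 fell (1 with batch as a block). Vgf, a granule peptide precursor, measured 5.46, 5.73, 5.42, 5.44 and 5.40 at 0 h and between 5.70 and 6.85 (median 6.64) at 48 h, and rose by 0.96 although its lowest 48 h array lay below 0 h replicate 2. Slc30a8, the granule zinc transporter, fell by 0.46. Of 21 exocytosis genes 2 rose and 2 fell (9.52% each), and with batch as a block 0 rose and 1 fell. Of 22 genes that beta cells normally keep low, none rose and 3 fell, among them Mgst1 (-1.73) and Aldh1a3 (-1.0), a retinaldehyde dehydrogenase. The mean of that list was 4.63 on 0 h replicate 3 and 4.16 to 4.26 on the other 0 h arrays. Over all alternatives, which include the fit without that array, 2 to 5 of the 22 fell. The part of that array in the size of these falls was not tested.

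Of the 65 lists, proliferation and DNA replication genes had the largest number of falls, 21 of 51 (41.2%) with no rise, with a median of -0.36. By share, the caveolae (62.5%) and endothelial (62.1%) lists described below had more falls, and 5.27% of all genes fell. The list's mean was 4.56 to 5.14 at 0 h and 4.13 to 4.48 at 48 h, lower in all 5 complete batches. Many of its members are near the lower end of the scale, and 13 of the 33 left by a filter on level fell. The cell cycle homology element, TTTGAA on either strand, through which the DREAM complex is known to silence mitotic genes, was in 22 of 45 of their promoters (48.9%) and in 17.9% of all promoters. Cdc20, at chr4:118437314-118437593 on the minus strand with the match at position -18, and Mki67, at chr7:135716350-135716629 on the minus strand with 2 matches, the first at -116, are printed with the element in capitals.
Cdc20: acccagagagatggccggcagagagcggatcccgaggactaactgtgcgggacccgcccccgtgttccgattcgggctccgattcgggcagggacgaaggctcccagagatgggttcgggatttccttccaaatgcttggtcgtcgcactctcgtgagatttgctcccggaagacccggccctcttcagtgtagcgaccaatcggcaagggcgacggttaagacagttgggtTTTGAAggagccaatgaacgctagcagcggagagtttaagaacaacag
Mki67: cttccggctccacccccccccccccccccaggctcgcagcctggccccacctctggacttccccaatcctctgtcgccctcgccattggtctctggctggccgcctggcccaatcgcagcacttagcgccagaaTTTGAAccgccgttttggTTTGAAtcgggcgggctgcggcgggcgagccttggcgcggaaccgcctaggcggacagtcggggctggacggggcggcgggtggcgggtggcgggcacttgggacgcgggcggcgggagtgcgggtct
Cdc20, the activator of the anaphase-promoting complex, measured 6.51, 6.32, 6.68, 6.94 and 5.15 at 0 h and between 3.55 and 4.90 (median 4.01) at 48 h. It fell 4.83-fold (-2.27 ± 0.28, adjusted p = 2.99e-05). Mki67, the standard marker of dividing cells, measured 7.04, 6.90, 6.71, 7.32 and 5.99 at 0 h and between 3.94 and 5.42 (median 4.50) at 48 h and fell 4.37-fold (-2.13 ± 0.28, adjusted p = 6.11e-05). In both genes 0 h replicate 6 was the lowest uncultured array, yet it still lay above every 48 h array. Topoisomerase Top2a fell by 1.78, the mitotic kinase Cdk1 by 1.61 and Rrm2, a subunit of ribonucleotide reductase, by 1.52. Ccnd2, the main D cyclin of mouse beta cells, fell from 12.32, 12.34, 12.32, 12.42 and 12.41 at 0 h to between 11.51 and 11.93 (median 11.77) at 48 h (1.51-fold, adjusted p = 0.000751), and all 7 of its probe sets pointed down, by -0.65 to -0.34. Of the 13 D cyclins and kinase inhibitors 1 rose, Cdkn1a above, and 3 fell.

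Many genes of the islet vessels fell. Of 29 endothelial markers 18 fell and 1 rose, with a median of -0.51, and the count of falls was 15 to 19 over all alternatives. The list's mean was 5.54 to 5.85 at 0 h, highest on replicate 6, and 4.51 to 4.86 at 48 h. Plvap, which forms the diaphragms of fenestrated capillaries, measured 7.50, 7.61, 8.09, 7.66 and 7.85 at 0 h and between 4.84 and 5.62 (median 5.03) at 48 h. The groups were 1.88 apart at their nearest arrays, and the fall was 6.17-fold (-2.63 ± 0.17, adjusted p = 1.47e-08). The vascular endothelial growth factor receptors Kdr and Flt1 fell by 1.87 and 1.90, the angiopoietin receptor Tek by 1.51 and the endothelial phosphatase Ptprb by 2.82, although 1 of the 3 probe sets of Ptprb differed by 0.16. Epas1, the hypoxia-inducible factor HIF-2alpha, which is prominent in endothelium, measured 9.12, 9.21, 9.28, 9.0 and 9.39 at 0 h and between 6.00 and 7.10 (median 6.64) at 48 h, a 5.91-fold fall (-2.56 ± 0.15, adjusted p = 3.12e-09), with its probe sets between -2.56 and -0.17. Sox17, an arterial factor, rose by 1.02 against the list, a call lost in 3 of 11 fits with 1 array omitted (adjusted p up to 0.0650, on omission of 0 h replicate 1). Pecam1 and Cdh5, usual defining markers, had means of 3.08 and 3.33 at 0 h and 2.91 and 3.11 at 48 h, below the table's median at both times, so their probe sets give little signal here. In such bulk samples, fewer cells of a type and less RNA per cell cannot be told apart.

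Caveolae, the small membrane pits that are dense in endothelium, lost transcripts in 5 of 8 genes, with a median of -0.62 and no rise, and the list's mean dropped from 4.48 to 4.79 at 0 h to 3.27 to 3.43 at 48 h. Cav1, the main coat protein, measured 6.99, 6.93, 7.38, 6.60 and 7.52 at 0 h and between 4.11 and 4.52 (median 4.35) at 48 h. No 48 h array came within 2 of the lowest uncultured one, and the fall was 6.79-fold (-2.76 ± 0.17, adjusted p = 4.53e-09). Cav2 fell at least 3.4-fold, with 3 of the 6 cultured arrays under the table's median. Of 16 pericyte and smooth muscle markers 5 fell and 1 rose. The falling ones were contractile or signalling genes, such as Mylk, the myosin kinase (-0.85), Tagln (-0.79) and Notch3 (-0.54), next to Rgs5, an inhibitor of G protein signalling, at -3.12. Kcnj8, a subunit of vascular ATP-sensitive potassium channels, measured 4.65, 4.49, 4.43, 4.91 and 3.91 at 0 h and between 5.49 and 6.19 (median 5.97) at 48 h and rose 2.68-fold (adjusted p = 1.77e-05). Among usual pericyte markers other than Rgs5, Pdgfrb averaged 4.73 at 0 h and 4.66 at 48 h. Acta2 and Cspg4 differed by -0.54 and 0.03 and did not pass (adjusted p = 0.0539 and 0.918). The list's mean was 4.52 to 4.67 at 0 h and 4.18 to 4.42 at 48 h, lower in all 5 complete batches. Of the 16 differences 11 were below 0 and 5 above, so single genes did not all share a direction.

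**Figure D3:**
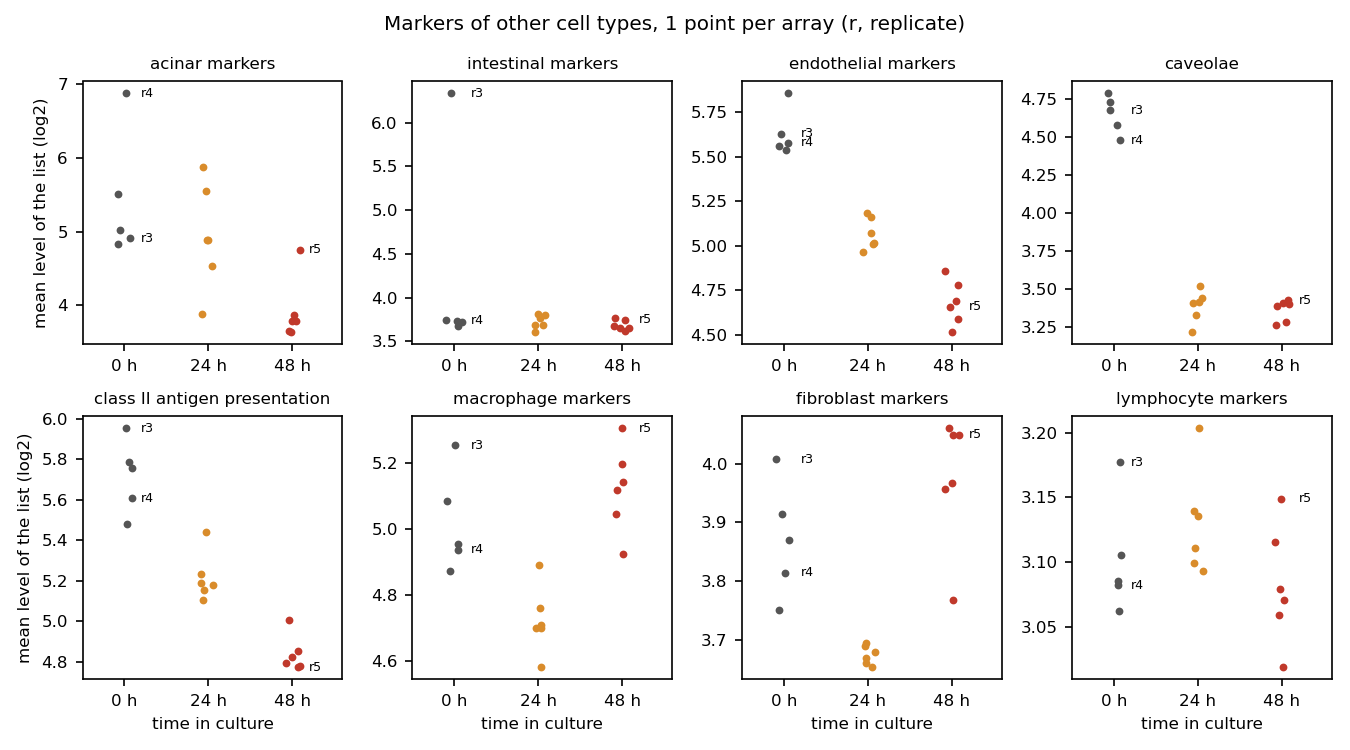
Mean level of marker gene lists for cell types other than beta cells (log2 intensity, vertical axis) on each array at 0, 24 and 48 h, 1 point per array. Endothelial, caveolar and class II lists lie lower on every 48 h array than on any 0 h array, while acinar and intestinal lists show the single arrays that stand apart, 48 h replicate 5 and 0 h replicate 3.

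Macrophage markers did not move as a list, with 4 of 26 higher (2 without 0 h replicate 2), 2 lower and a median of 0.03, and 48 h list means of 4.93 to 5.31 overlapping the 0 h means of 4.87 to 5.25. Single members moved far in both directions. Cd68, a protein of macrophage lysosomes, measured 4.01, 3.95, 3.69, 3.67 and 3.65 at 0 h and between 5.70 and 6.37 (median 5.92) at 48 h, a 4.46-fold rise (2.16 ± 0.15, adjusted p = 2.69e-08). Csf1r, the receptor for the macrophage growth factor, measured 7.62, 7.43, 8.41, 7.88 and 7.71 at 0 h and between 6.25 and 6.84 (median 6.63) at 48 h and fell 2.31-fold (-1.21 ± 0.14, adjusted p = 2.11e-05). Neither gene's groups overlapped. Adgre1, a surface receptor of macrophages, fell by 0.38, a call lost in 6 of 11 fits with 1 array omitted (adjusted p up to 0.0875, on omission of 0 h replicate 3) and with batch as a block (0.0614). C1qa averaged 6.79 at 0 h and 6.04 at 48 h and did not pass, and Mpeg1 and Lyz2 rose by 0.88 and 0.69, Lyz2 losing its call in 6 of 11 fits with 1 array omitted (adjusted p up to 0.0965, on omission of 0 h replicate 4). Clec7a, the beta-glucan receptor dectin-1 of myeloid cells, measured 5.44, 5.05, 5.52, 5.72 and 5.18 at 0 h and between 6.61 and 7.71 (median 6.93) at 48 h, a 3.06-fold rise that came after 24 h (1.75 against 24 h, adjusted p = 3.05e-05).

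Class II antigen presentation, the hallmark of dendritic cells and islet macrophages, fell in 4 of 10 genes and rose in 1, with a median of -0.17. The list's mean was 5.48 to 5.95 at 0 h and 4.78 to 5.01 at 48 h. H2-Eb1, a class II chain, measured 8.47, 8.26, 8.83, 8.11 and 8.77 at 0 h and between 5.80 and 6.23 (median 6.10) at 48 h. The nearest arrays were 1.88 apart, the fall was 5.4-fold (-2.43 ± 0.13, adjusted p = 8.85e-10), and it went on after 24 h (-0.81, adjusted p = 0.00683). H2-Aa and H2-Ab1 fell by 2.58 and 2.23, and the invariant chain Cd74 by 1.57. Ifi30, a reductase of the antigen-processing compartment, rose by 0.49. The median difference of the class I list was 0.62, and its difference from the class II median was not tested. Of 15 lymphocyte markers 1 rose and 1 fell, the latter not with batch as a block. No Schwann cell, intestinal or adipocyte marker passed, of 9, 14 and 5 measured, although 1 adipocyte gene rose with batch as a block. In the blood cell and platelet list 1 of 9 passed, the platelet chemokine Pf4, which macrophages also make.

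Matrix genes separated by kind. Of 14 fibrillar and other interstitial collagens 4 rose and none fell, and the list's mean was 4.19 to 4.37 at 0 h and 4.58 to 4.87 at 48 h. Col3a1 measured 5.92, 6.48, 6.70, 5.45 and 6.10 at 0 h and between 7.40 and 8.49 (median 7.91) at 48 h, a 3.28-fold rise without overlap (1.71 ± 0.21, adjusted p = 2.85e-05). Its mean at 24 h was 5.03, below that of 0 h, and the rise from 24 to 48 h was 2.82 (adjusted p = 7.32e-07). Col1a2 measured 4.77, 4.97, 4.94, 4.40 and 4.51 at 0 h and between 5.06 and 6.10 (median 5.76) at 48 h, 1.98-fold higher (adjusted p = 0.000213), and rose by 1.48 after 24 h. Col1a1 differed by 0.38, with most of its arrays under the table's median, and lost its call without 0 h replicate 1 (adjusted p = 0.0556). Fibroblast markers as a list did not follow, with 4 of 17 higher and 2 lower, the 4 being Col3a1, Col1a2, Col1a1 and Postn, periostin, at 0.60, whereas Thy1 and Dpt fell by 0.65 and 0.38. Dpt lost its call in 9 of 11 fits with 1 array omitted (adjusted p up to 0.121, on omission of 0 h replicate 3) and with batch as a block (0.0611). Basement membrane genes went down in 7 of 17 and up in 1, with a median of -0.36 and list means of 5.07 to 5.23 at 0 h and 4.66 to 4.84 at 48 h. The falling genes were the type IV collagens Col4a1 and Col4a2 (-0.68 and -0.90), the laminin chains Lama3, Lama5 and Lamb2 (-0.85, -0.73 and -0.78), agrin (-0.76) and nidogen (-0.60), several of them made by the vessels whose markers fell alongside, and the part of those cells was not tested. Agrin rests on 1 probe set, another differing by 0.15.

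Of 23 matrix proteases and inhibitors 8 rose and 2 fell. Plat, the tissue plasminogen activator, measured 5.94, 5.91, 5.78, 6.13 and 6.51 at 0 h and between 6.93 and 7.71 (median 7.27) at 48 h, a 2.39-fold rise with no overlap (1.26 ± 0.15, adjusted p = 2.99e-05). The aggrecanase Adamts4 rose by 1.32, Adam8 by 1.08 and Mmp14, the membrane-bound metalloprotease, by 0.77. Tissue inhibitors split, with Timp1 higher by 0.49 and Timp2 and Timp3 lower by 0.43 and 3.23. Among 21 wound and matricellular genes 6 rose and 2 fell, and 3 rose without 48 h replicate 5, alone or with 0 h replicate 4. Vim, the intermediate filament vimentin of mesenchymal and dedifferentiating cells, measured 5.71, 5.12, 5.78, 5.43 and 5.75 at 0 h and between 6.61 and 7.75 (median 7.49) at 48 h and rose 3.6-fold (1.85 ± 0.16, adjusted p = 4.83e-07). Anxa3, an annexin, fell by 1.14. Keratins and junction genes had 4 of 22 higher and 1 lower (2 with batch as a block), with 2 higher without 0 h replicate 3, without 48 h replicate 2, and without 0 h replicate 4 and 48 h replicate 5 together. Krt7, a simple-epithelial keratin, measured 9.31, 9.21, 9.55, 9.27 and 9.22 at 0 h and between 9.82 and 10.40 (median 10.24) at 48 h, and rose by 0.87 (adjusted p = 1.47e-05), while Krt19, the defining duct keratin, averaged 4.92 at 0 h and 3.76 at 48 h and did not pass, and Sox9 and Cftr were below the table's median at both times.

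Acinar genes, which encode digestive enzymes, fell in 9 of 26 with a median of -1.44, and none rose, with list means of 4.83 to 6.87 at 0 h and 3.64 to 4.75 at 48 h. The ranges of the means do not overlap, although 0 h replicate 4 and 48 h replicate 5 reached the top of their groups. Beyond the enzymes with the largest falls, the elastase Cela3b fell by 2.80, carboxypeptidase Cpa1 by 2.5, colipase Clps by 1.58 and pancreatic ribonuclease Rnase1 by 1.33. Their spread was wide, and calls were lost in fits without 1 array for Cela3b (5 of 11, adjusted p up to 0.0835 on omission of 0 h replicate 4 and 0.0708 with batch as a block) and Cpa1 (5 of 11, adjusted p up to 0.0793 on omission of 0 h replicate 4 and 0.0661 with batch as a block). Ctrb1, chymotrypsinogen, averaged 6.10 at 0 h and 4.56 at 48 h and did not pass, and the acinar factor Ptf1a was below the table's median at both times.

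**Figure D4:**
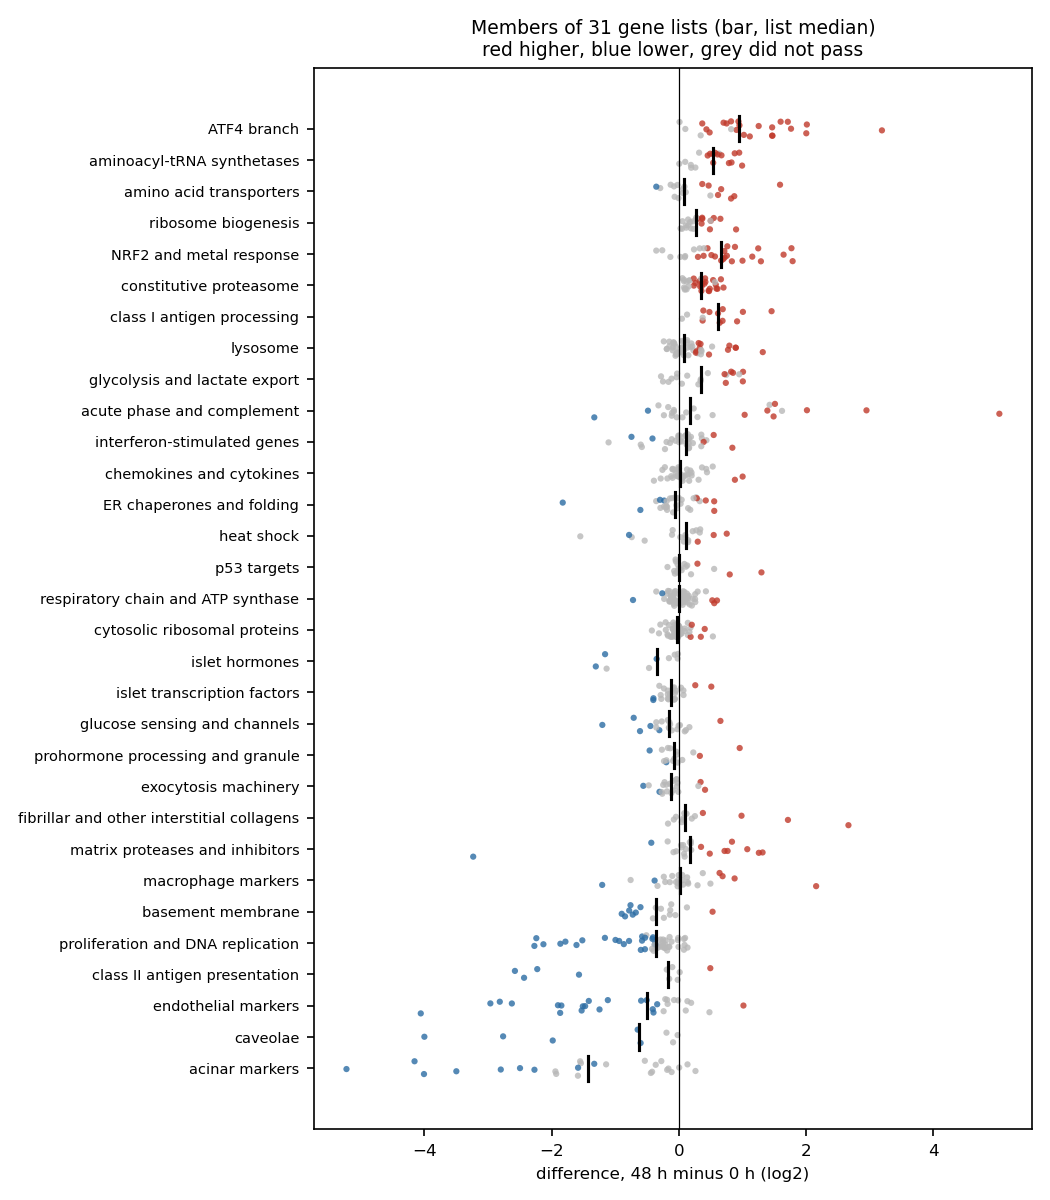
Difference between 48 and 0 h (log2, horizontal axis) of each measured member of 31 gene lists, 1 point per gene, red where it rose, blue where it fell and grey where it did not pass (limma), with a bar at the list's median. The medians of the ATF4, NRF2, class I and synthetase lists stand between 0.54 and 0.95, and those of the endothelial, caveolar and acinar lists between -0.51 and -1.44.

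Signalling genes moved individually. Igf1r, the receptor for insulin-like growth factors, measured 7.42, 7.05, 7.38, 7.20 and 7.52 at 0 h and between 8.47 and 8.89 (median 8.76) at 48 h, a 2.69-fold rise with no overlap (1.43 ± 0.12, adjusted p = 2.31e-07), whereas Insr, the insulin receptor, fell by 0.40. Igfbp5, which binds these growth factors, rose by 2.25 on the probe set that stands for it, but differed by -0.04 when probe sets that can cross-hybridise were left out. Rgs4 and Rgs2, both of which dampen G protein signalling, went opposite ways. Rgs4 measured 8.21, 7.71, 7.57, 7.75 and 8.27 at 0 h and between 10.12 and 10.91 (median 10.47) at 48 h, 6.14-fold higher. Rgs2 measured 10.16, 11.50, 9.20, 9.98 and 10.54 at 0 h, with replicate 2 at the top, and between 7.46 and 8.38 (median 7.99) at 48 h, 5.04-fold lower (-2.33 ± 0.30, adjusted p = 5.14e-05). No arrays of either gene overlapped.

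Of 33 TGF-beta and BMP pathway genes 5 rose and 6 fell. The inhibitors of differentiation Id2 and Id3 rose by 1.76 and 0.86 while Id1 fell by 0.61, a call lost in 7 of 11 fits with 1 array omitted (adjusted p up to 0.109, on omission of 0 h replicate 4). Bambi, a decoy receptor, fell by 0.84, and the receptors Tgfbr2 and Acvrl1, both strong in endothelium, by 0.64 and 0.68. Growth factor genes had 1 of 23 higher and 5 lower, with Fgf1 at -1.23 and the vascular growth factors Vegfc and Pgf at -0.81 and -0.63, Vegfc losing its call without 0 h replicate 2 (adjusted p = 0.0632). In the immediate early list 6 of 31 rose and 4 fell, 2 of them without 0 h replicate 4 and 48 h replicate 5. Ier3 rose by 1.90, the orphan receptor Nr4a2 by 1.04 and Fosl2 by 1.25, another probe set of Fosl2 differing by -0.40, while Klf2 and Klf4 fell by 0.39 and 0.83, Klf4 losing its call without 0 h replicate 3 (adjusted p = 0.0636). Of the clock genes 3 of 18 rose and none fell.

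Among the largest changes by single gene, some had no place in a list. Car15, a carbonic anhydrase, measured 8.16, 7.27, 7.98, 7.59 and 7.20 at 0 h and between 9.75 and 10.28 (median 9.91) at 48 h, a 4.96-fold rise (2.31 ± 0.16, adjusted p = 2.34e-08) of which 0.89 came after 24 h. Acp5, the tartrate-resistant acid phosphatase of osteoclasts and macrophages, measured 3.81, 3.89, 4.24, 4.13 and 3.46 at 0 h and between 5.90 and 6.53 (median 6.36) at 48 h and rose at least 5.2-fold (adjusted p = 7.64e-10). Neither gene's groups came close to overlapping. Stbd1, a glycogen-binding protein, rose at least 4.72-fold (adjusted p = 1.13e-06). Plpp1, a lipid phosphate phosphatase, measured 9.15, 8.54, 9.28, 8.71 and 9.10 at 0 h and between 5.96 and 6.47 (median 6.21) at 48 h, a 6.81-fold fall (-2.77 ± 0.13, adjusted p = 1.09e-10). Actb, a usual reference gene, differed by -0.17 and did not pass (adjusted p = 0.458).

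**Figure D5:**
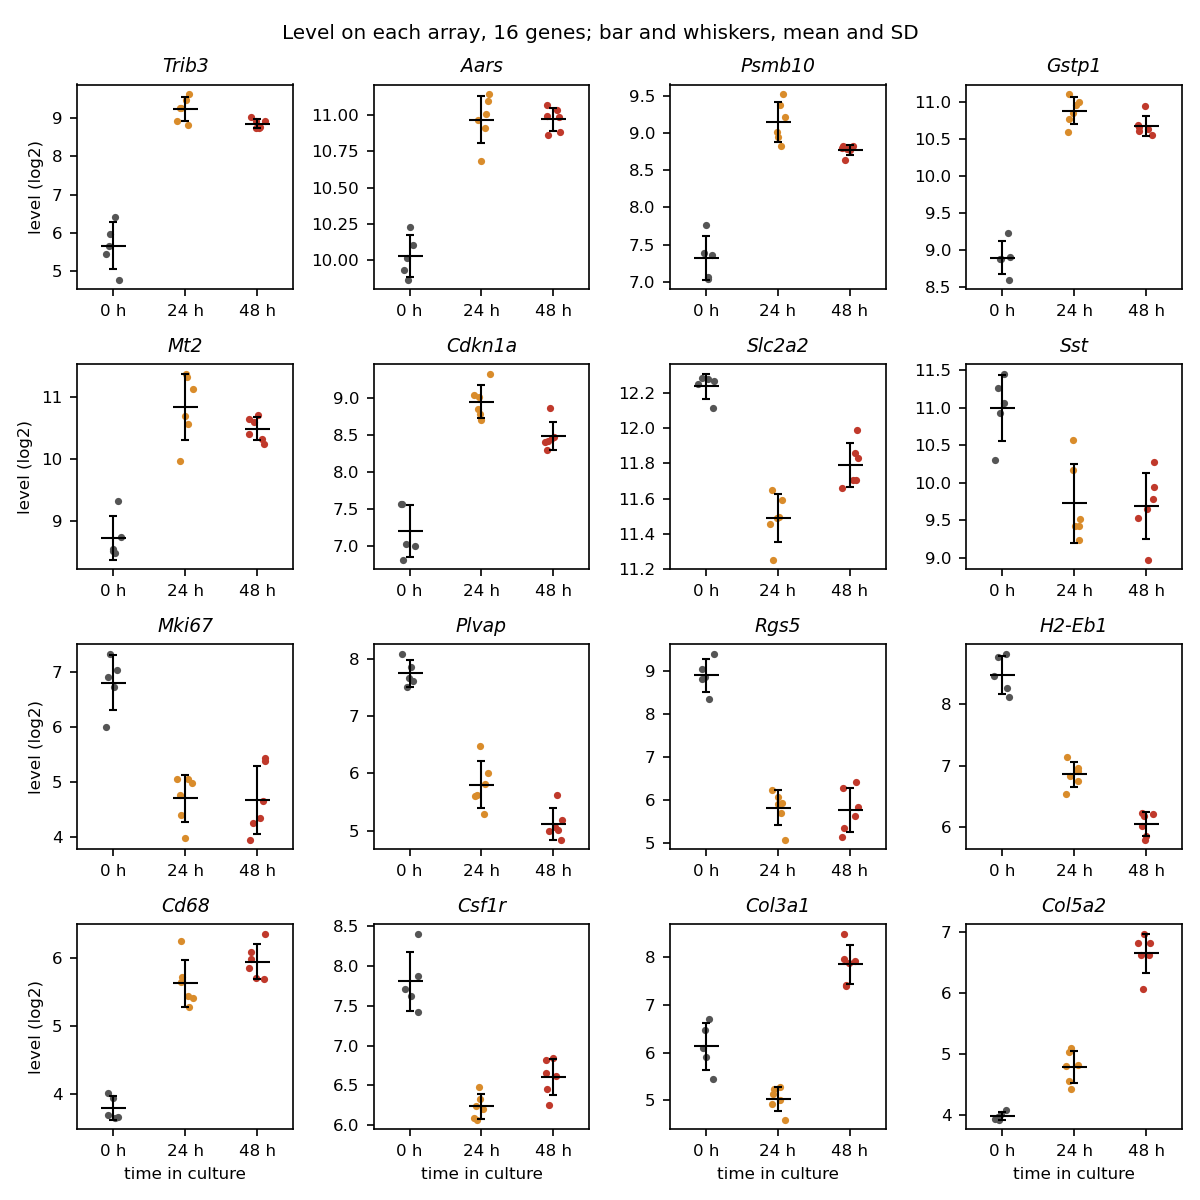
Level (log2 intensity, vertical axis) of 16 genes on every array at 0, 24 and 48 h, 1 point per array, with the mean and SD of each time as bar and whiskers. Trib3, Gstp1 and Cd68 lie above all their 0 h points on all 48 h arrays, Col3a1 and Col5a2 rise between 24 and 48 h, and Plvap, Rgs5, H2-Eb1 and Mki67 lie below their 0 h points on all 48 h arrays.

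Few genes kept moving between 24 and 48 h. The rises of that interval among genes that also passed against 0 h were led by Col3a1, Col5a2 (1.86), Clec7a, Lyz2 (1.54), Col1a2, Cd36 (1.46), Pf4 (1.23) and Mpeg1 (1.03). The falls were led by Hmox1, Esm1 (-1.01), a protein of sprouting endothelium, Srgn (-0.99), Col13a1 (-0.97), Tmem204 (-0.97), Ccl5 (-0.97), Cip2a (-0.90) and H2-Aa (-0.88). By list, 4 of 26 macrophage genes, 3 of 17 fibroblast genes and 3 of 14 interstitial collagens, a list that shares members with the fibroblast list, were higher at 48 h than at 24 h, against 0.429% of all genes. Lower at 48 h than at 24 h were 6 of 29 endothelial, 5 of 29 NRF2 and metal response, 3 of 35 interferon-stimulated, 2 of 13 class I and 2 of 10 class II genes, against 0.33% of all genes. The other lists had at most 1 gene in either direction.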

How the data were processed

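The authors deposited log2 values after RMA, per the submitters' processing notes. No version of RMA was found in the labels or notes, and the log2 scale was inferred from the values. Groups, replicate numbers and batches came from the labels. All 17 arrays entered 1 fit with a mean per time (R 4.3.3, limma 3.58.1, lmFit and eBayes), with Benjamini-Hochberg adjustment over 45037 probe sets and a threshold of 0.05. A gene was read from its probe set with the highest mean over all arrays. The step was tested on simulated data with known changes, of which it recovered 92% at 2-fold and 99% at 4-fold, with 14 false calls among 205. The 200 changes were placed in probe sets above the table's median, with independent noise. These rates therefore do not cover dim genes or arrays that stand apart.

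The members and the 65 gene lists were chosen with earlier results of these data known. Genes were picked by rule as up to 4 passing genes of a list by size, the 15 largest rises and 15 largest falls without overlap, and the 8 largest rises and falls after 24 h. Not all of these are reported here, so the genes named are not always the largest changes of their list. The largest differences of the acute phase, acinar, endothelial and caveolae lists, of genes not named here, were 5.04, -5.23, -4.06 and -4.00. Other genes were named after their values were seen. Promoters (RefSeq, GRCm38.p6) were matched by symbol for 14452 of 18193 genes and searched for 11 motifs.

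Each 0 h array shares its batch with arrays at 24 and 48 h. Deviations of the 5 same-batch pairs had a median correlation of -0.00428 (range -0.159 to 0.00811), but same-numbered arrays come from the same pooled mice. Values with batch as a block are therefore given where they change the call of a gene named above, and for some list counts. List members not named above also lost calls with the block, among them Ddx21 (adjusted p = 0.0713), Psmb6 (0.111) and Atp6v1b2 (0.103). Counts of passing members given without a block value hold only for the fit without a block. 26 alternatives were run.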

Additional observations from a re-analysis of the deposited data

Results flagged for a closer look

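Over 248 groups of single genes and list means, 21 held 1 array far from the others, and chance gives about 1 in 20. By array, 6 of them were on 0 h replicate 3, 5 each on 48 h replicates 3 and 5, 3 on 48 h replicate 6 and 2 on 0 h replicate 6.

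On 0 h replicate 3 the mean of intestinal markers was 6.34 (others 3.67 to 3.74), that of keratins and junctions 8.11 (7.57 to 7.72) and that of genes normally low in beta cells 4.63 (4.16 to 4.26). On the same array Ins2 was 13.81 (13.74 to 13.75), Slc2a2 12.12 (12.25 to 12.29) and Kcnj11 7.64 (7.17 to 7.30). On 0 h replicate 6 the endothelial mean was 5.85 (5.54 to 5.63) and the NF-kappaB mean 5.57 (5.14 to 5.18).

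On 48 h replicate 5 the acinar mean was 4.75 (3.64 to 3.87), with 2210010C04Rik at 5.14 (2.04 to 3.03), Cpb1 at 5.45 (2.45 to 2.79) and Cela2a at 5.44 (2.92 to 3.50), and Clec7a was 7.71 (6.61 to 7.02). On 48 h replicate 3 the complement gene Cfb was 8.78 (6.05 to 6.72), Iapp 13.10 (12.96 to 13.01), Kcnj11 6.94 (7.15 to 7.25), the class II mean 5.01 (4.78 to 4.85) and the adipocyte mean 3.35 (3.49 to 3.54). On 48 h replicate 6 the mean of genes low in beta cells was 3.90 (4.02 to 4.09), the fibroblast mean 3.77 (3.96 to 4.06) and the basement membrane mean 4.66 (4.78 to 4.84). Without 0 h replicate 3 the call of Slc2a2 was kept, and the part of these arrays in other results was not tested beyond the counts already given.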

How the results depend on the processing

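With 1 array left out, 2862 to 3853 probe sets passed (1611 to 2132 higher, 1251 to 1721 lower), which are 1625 to 2118 genes (916 to 1131 higher, 709 to 987 lower), against 2133 genes with all arrays. On the linear scale, a 4-fold rule on group means gave 29 to 34 probe sets over 4-fold and 58 to 86 under 0.25-fold in these fits, and 48 under 0.25-fold with means of log2 values. With batch as a block (the pairing of the design), 3572 probe sets passed (2040 higher, 1532 lower) and 1993 genes (1124 higher, 869 lower), of which 1759 were among the 2133. Without 0 h replicate 4 and 48 h replicate 5, a choice made after seeing the data, 2523 probe sets passed, 1082 of them lower, and 1420 genes, 616 of them lower. With arrays centred on their medians 1430 genes were higher and 704 lower, and with quantile normalisation 980 and 1159, so that the balance of rises and falls depends on the scaling. With values under the table's median set to it, 1096 probe sets were lower. Igfbp5 and Wipi1 turned to -0.039 and -0.050 without probe sets that can cross-hybridise, Dlat and Atg4b to -0.056 and -0.0084 with the mean of a gene's probe sets, and Hspa4, Sod2, Dlat, Ndufs4 and Atg4b to -0.063, -0.34, -0.50, -0.43 and -0.21 with the probe set of largest variance. Over the 26 alternatives, values of the 237 genes named by rule kept their direction and their side of the threshold 5733 times, lost the call 394 times, gained it 11 times and reversed 9 times. The cause of these changes was not tested. The number of arrays limits precision, and the size of a fall is uncertain for genes near the lower end of the scale. In the lowest of the 4 level classes 59 genes fell and 14 rose, 0 of them by 2-fold or more.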

Other observations

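Further genes outside the comparisons above are given as values. Of 18 crystallin genes 2 rose and 1 fell. Of 16 integrins 1 rose, Itgb3, the beta 3 chain, by 1.01, and 1 fell, and of 27 actin and tubulin genes 4 rose and 3 fell, with Myl9, a smooth muscle myosin light chain, at -1.35. No gene of the Reg family passed (0 of 7, limma). Of 15 Notch genes 2 fell and none rose, and of 11 duct markers 2 rose and none fell; with batch as a block 1 Notch gene rose and 1 duct marker fell.

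Motifs not described above occurred in the list promoters as follows, always on either strand of the 300 bases searched. The heat shock element was in 5 of 22 promoters of its list, against 0.603% of all promoters, the E box CACGTG in 6 of 21 promoters of the clock list, against 7.15%, the kappaB site in 6 of 19 promoters of the NF-kappaB list, against 1.63%, and the E2F site TTTCCCGC in 4 of 45 proliferation promoters, against 1.07%. The sterol response element was in 1 of 19 promoters of the cholesterol list (5.26%), against 1.24% of all promoters, and in 0 of 2 promoters of the genes that rose and 0 of 4 of those that fell.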
